A study of Mus musculus with 473 samples.

Results

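Single Th:EGFP cells of the mouse midbrain (MB) were set against single Th:EGFP cells of the forebrain (FB, in the labels the hypothalamus) at postnatal day 7 (P7), with every cell of both regions that passed the quality control of the authors on all 3 P7 library plates. There were 75 such MB cells and 81 such FB cells, together 156 of the 285 P7 cells and of the 473 cells of the study. A further 20 MB and 14 FB cells did not pass and were left out. Both groups came from the bacterial artificial chromosome line Tg(Th-EGFP)DJ76Gsat/Mmnc on the outbred Swiss Webster background, which makes eGFP under control sequences of Th, the tyrosine hydroxylase gene; sires were hemizygous and dams were wild type. MB cells came from 1 pool of tissue of 5 pups and FB cells from 1 pool of tissue of 5 pups. Both pools went through papain, a density gradient and a sort of eGFP-positive cells that excluded propidium iodide, and poly(A) RNA was read over its full length by Smart-Seq2. The reporter marks cells in which a Th transgene is or was active, which need not be cells that release dopamine. Because each region is 1 pool, cells are not replicates of a region; the values below are levels, spreads over cells and folds, with no test.

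The 3 library plates are called A (TH02_16.18.20), B (TH02_18.20.16) and C (TH02_20.16.18). They held 20, 30 and 25 passed MB cells and 29, 31 and 21 passed FB cells. They divide the same 2 pools, so they show technical spread and not spread between animals. On plates A and C the columns of the expression table differed from the labels that bear their names. The number of genes stated in each label had a correlation of -0.03 with the number of genes at 1 FPKM or more (fragments scaled to transcript length and to the mapped total of the cell) in the column of that name over 95 cells of plate A. The same correlation was -0.05 over 94 cells of plate C and 0.999 over 95 cells of plate B. When the columns of plates A and C were exchanged well by well, both correlations were 0.999, and the median difference between the numbers was 89 genes on plate A (1748 before) and 82 on plate C (1748.5 before). The exchange rests on gene numbers alone, and everything below uses it; plate B needs no exchange. With the columns as named, 36 of 38 genes followed below had folds nearer to 0, 30 were still at least 2-fold in the same direction, and 8 were not: Th, the eGFP transcript, Gad1, Gad2, Fos, Egr1, Rgs4 and Cpne6. As log2 folds defined below, Th had 0.74 as named against 1.84 exchanged, Slc6a3 1.70 against 3.82, Aldh1a1 1.69 against 8.85, Gad1 -0.56 against -6.06 and Ghrh -1.76 against -8.81.

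**Figure D1:**
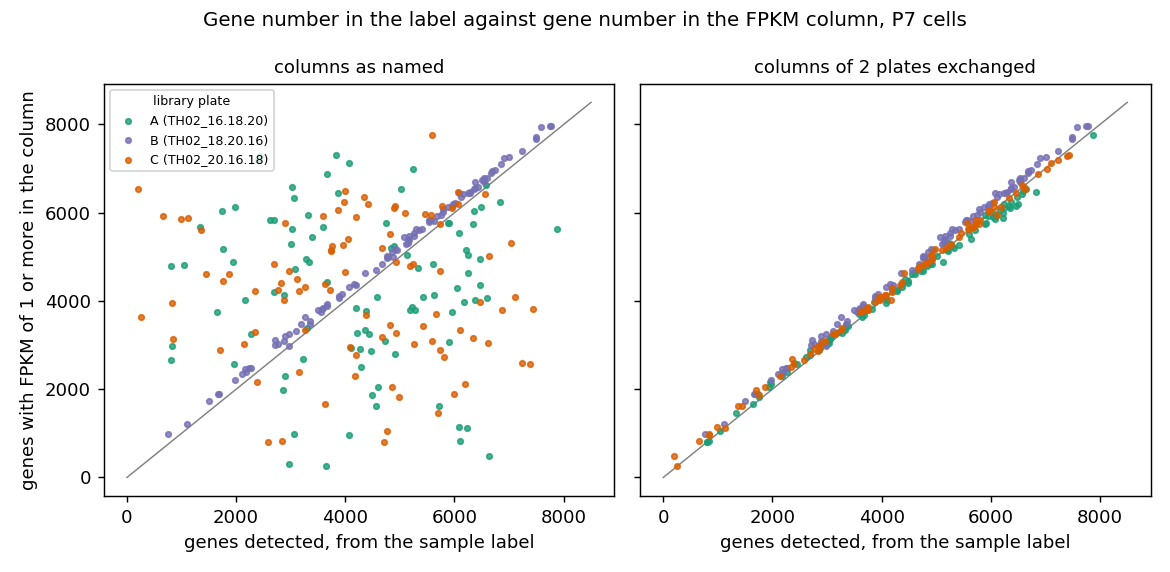
Number of genes stated in the label of each P7 cell (x axis) against the number of genes at 1 FPKM or more in its column (y axis), with the columns as named (left) and with those of plates A and C exchanged (right); the line marks equal numbers. Plate B lies along the line on both sides, and plates A and C do so on the right alone.

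Isl1, a LIM-homeodomain factor of hypothalamic neurons, shows what the exchange does to a region marker that was not used to make it. With the columns exchanged, Isl1 was at 1 FPKM or more in 0 of 20, 0 of 30 and 0 of 25 MB cells of plates A, B and C, against 21 of 29, 21 of 31 and 15 of 21 FB cells. With the columns as named it was found in 11 of 20 and 2 of 25 MB cells of plates A and C, against 0 of 29 and 0 of 21 FB cells.

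MB cells were richer in genes than FB cells, with a median of 6185 genes in the labels of MB cells (4081 to 7872) against 4916 in those of FB cells (2169 to 7487), and this held on each plate. The sum of FPKM per cell differed between plates more than between regions. Its median on plates A, B and C was 205564, 493126 and 268038 in MB cells, against 191477, 517940 and 276015 in FB cells, so plate B weighs most in a mean over all cells. The summed level of 5 neuronal markers had a median of 1471 FPKM in MB cells (632 to 5176) and 988 FPKM in FB cells (178 to 4880), so every cell had some. Some markers of other cell types were absent: Cx3cr1, P2ry12, C1qa, C1qb and Tmem119 (microglia) and Olig2 and Cspg4 (oligodendrocyte lineage) were listed at 0 in every MB and every FB cell. Other oligodendrocyte lineage genes were found, and 3 of the 9 listed had a mean of 1 FPKM or more in each region. The summed level of the 9 had a median of 2.87 FPKM in MB cells and 5.75 FPKM in FB cells. The astrocyte list summed to a mean of 14.9 FPKM per cell in MB (0 to 219) and 68.1 in FB (0 to 433), nearly all of it Aldoc, a glycolytic aldolase that neurons can express too; its other 6 members averaged 1.90 FPKM or less in both regions. Summed levels averaged 11.8 FPKM in MB (0 to 73.4) and 15.7 in FB (0 to 146) for 9 oligodendrocyte lineage genes, and 0.271 in MB (0 to 8.21) and 0.373 FPKM in FB (0 to 27.96) for 7 microglial genes. They averaged 3.26 FPKM in MB (0 to 171) and 0.999 in FB (0 to 62.9) for 7 endothelial and mural genes, and 1.33 FPKM in MB (0 to 58.3) and 0.91 in FB (0 to 56.8) for 4 ependymal and tanycyte genes. The 4 erythrocyte genes summed to 1.87 FPKM in MB (0 to 34.96) and 7.88 FPKM in FB (0 to 224). The part of these cell types and of the number of genes per cell in the results was not tested.

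Dopaminergic neurons of the ventral midbrain arise from the floor plate under the factors Foxa2, Lmx1a and Nr4a2, and they make, load and recapture dopamine with the products of Th, Ddc, Slc18a2 and Slc6a3. They send long axons to the striatum and cortex, and those of the substantia nigra are lost in Parkinson disease. In the hypothalamus, Th is made by several groups of neurons, many of them GABAergic, including arcuate cells that control prolactin or growth hormone; they are patterned by other homeodomain factors, and many carry neuropeptides.

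The sequences upstream of 4 genes that come up below are shown for the short elements they hold: Th and Ddc, which make dopamine, and Ghrh and Sst, the hypothalamic peptide genes that stimulate and inhibit growth hormone. Each is the 250 bases before a RefSeq start (build GRCm38.p6), 5′ to 3′ on the strand of the gene, from chr7:142899996-142900245, chr11:11898145-11898394, chr2:157337427-157337676 and chr16:23890845-23891094, all on the minus strand. Capitals mark matches on either strand to TGACGTCA (the cAMP response element), AAAGGTCA (the element bound by Nr4a factors as monomers; its reverse complement is TGACCTTT) or TAATTA (a homeodomain core), which do not overlap here.
Th: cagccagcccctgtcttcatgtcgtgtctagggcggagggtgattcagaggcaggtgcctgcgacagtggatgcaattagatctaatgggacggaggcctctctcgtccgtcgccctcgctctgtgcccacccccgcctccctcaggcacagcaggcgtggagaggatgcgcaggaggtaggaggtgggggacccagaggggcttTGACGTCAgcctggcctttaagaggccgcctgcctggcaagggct
Ddc: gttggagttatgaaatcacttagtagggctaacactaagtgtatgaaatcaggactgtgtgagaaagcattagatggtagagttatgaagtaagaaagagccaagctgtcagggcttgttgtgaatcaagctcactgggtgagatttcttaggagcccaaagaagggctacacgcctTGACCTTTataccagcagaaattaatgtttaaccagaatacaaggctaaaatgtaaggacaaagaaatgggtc
Ghrh: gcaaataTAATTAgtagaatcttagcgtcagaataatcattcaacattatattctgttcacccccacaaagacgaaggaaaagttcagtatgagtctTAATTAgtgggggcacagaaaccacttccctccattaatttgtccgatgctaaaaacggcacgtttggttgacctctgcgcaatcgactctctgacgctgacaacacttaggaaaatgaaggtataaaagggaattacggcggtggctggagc
Sst: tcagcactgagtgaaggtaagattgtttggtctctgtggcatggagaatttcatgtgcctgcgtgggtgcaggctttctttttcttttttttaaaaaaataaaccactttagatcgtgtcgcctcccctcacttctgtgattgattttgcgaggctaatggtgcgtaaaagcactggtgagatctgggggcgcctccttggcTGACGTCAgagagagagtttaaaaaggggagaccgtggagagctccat
Th and Sst each hold TGACGTCA, beginning 45 and 48 bases before the start, an element found in 1.55% of 32851 such windows. Ddc holds AAAGGTCA 73 bases before 1 of its 2 starts (1.34% of windows). Ghrh holds TAATTA at 2 places, 243 and 153 bases before 1 of its 2 starts (4.84% of windows). For Ddc and Ghrh the start with the most matches is printed, a choice that the shares over windows do not allow for. Among 10 genes of the dopamine list with a window, TGACGTCA was found upstream of 1, AAAGGTCA of 1 and TAATTA of 0. Among 18 hypothalamic peptide genes, TGACGTCA was found upstream of 2, AAAGGTCA of 0 and TAATTA of 4. Such counts take a gene with a match at any of its starts, so the shares per window are not their background. Of the 30 genes chosen by size of fold below, 10 higher and 13 lower in MB have such a window, and TAATTA upstream of Ghrh is the 1 match among them. A match describes letters and is neither a bound site nor a cause, and a gene without one may still be bound.

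Of 28952 features, 12052 had a mean of 1 FPKM or more in at least 1 region. Their fold is log2((mean FPKM + 1 in MB)/(mean FPKM + 1 in FB)), which understates low genes; a positive value means higher in MB. Its median over all 12052 was -0.04. At least 2-fold higher in MB were 656 features and at least 2-fold lower 801. With the further condition of the same direction on each of the 3 plates, 521 features were higher in MB (4.32% of those compared) and 507 were lower (4.21%). These are the features called higher or lower below, and every count of calls in a list is to be read beside these 2 shares. At least 2-fold on every plate were 177 features higher in MB (1.47%) and 144 lower (1.19%). A gene that reaches the minimum only in the region where it is higher has to differ, so the counts and medians of gene lists below are descriptions, and the other members of a list lay under the minimum. A value in brackets with no unit is a log2 fold over all cells. The balance depends on the scale: as a difference in mean log2(FPKM + 1), 834 features were higher and 102 lower by 1 or more, with a median of 0.22, and the greater number of genes found in MB cells moves with that shift; its part was not tested. Leaving out, in both regions, the cell with the highest value of a gene gave 671 higher and 531 lower, and the columns as named gave 645 and 609.

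**Figure D2:**
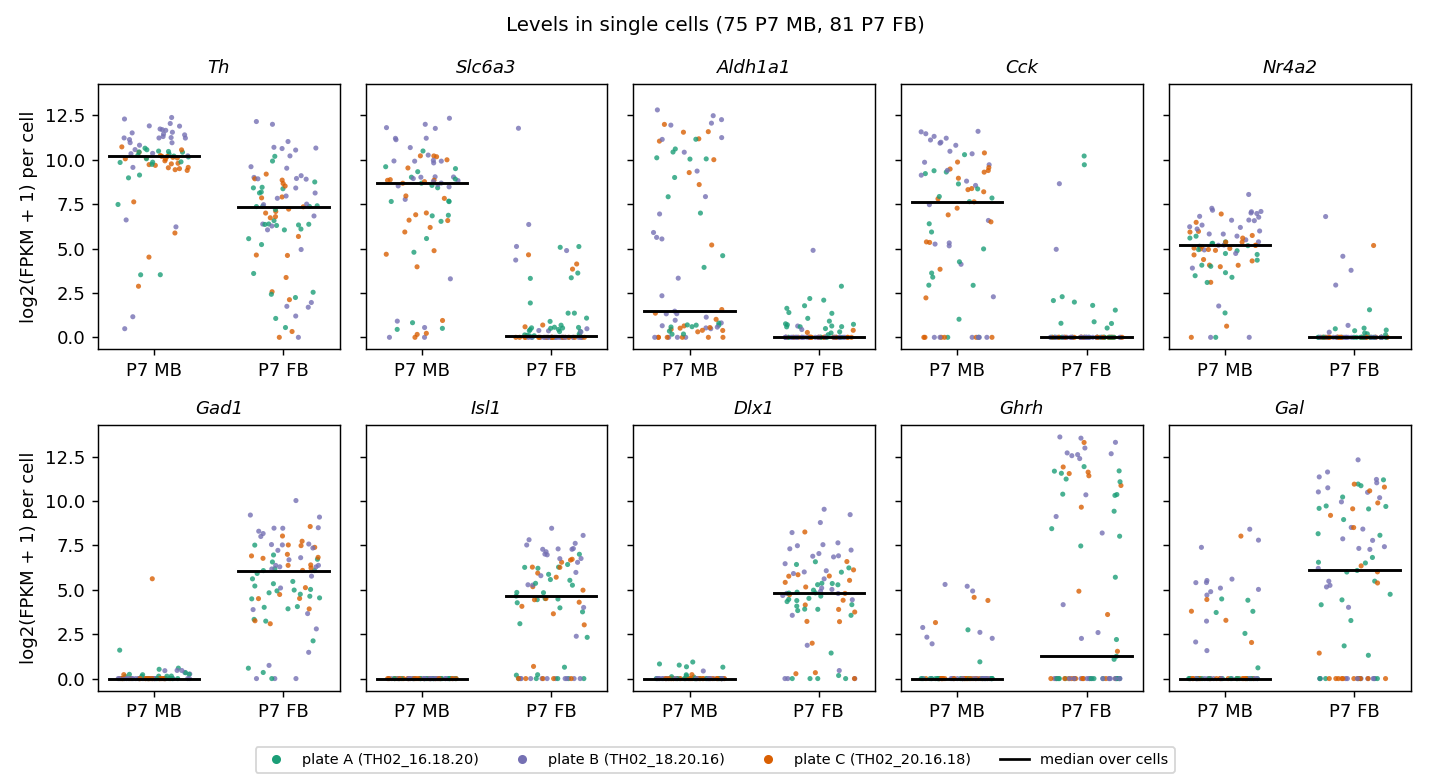
Level of 10 genes in each cell as log2(FPKM + 1), with P7 MB cells (75) left of P7 FB cells (81); colours mark the library plate and lines the median over cells. Isl1 is at 0 in all MB cells, while Th is found in nearly all cells of both regions.

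Most genes of dopamine synthesis, storage and reuptake were called higher in MB cells, and Th itself was found in both regions. Of 12 genes on that list, 7 were called higher in MB, all of them at least 2-fold on every plate, 0 were called lower, and the median log2 fold was 1.25 against -0.04 over all genes. The median was 1.52, 1.15 and 1.45 on plates A, B and C.

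Th (chromosome 7, 142892752 to 142931128, minus strand), the rate-limiting enzyme, had a lowest, median and highest value of 0.401, 1184 and 5350.0 FPKM in MB cells and 0, 163 and 4569 FPKM in FB cells. The groups overlapped, and the MB cells that lie far below the others belong mostly to 1 cluster described further on. Among MB cells 74 of 75 had it (98.7%, exact 95% interval 92.8 to 99.97%), and among FB cells 77 of 81 (95.1%, 87.8 to 98.6%); such intervals cover counting error alone. Its mean was 1489.5 ± 1176 FPKM in MB and 415 ± 767 FPKM in FB (SD over cells), a log2 fold of 1.84, or 2.31, 1.58 and 2.31 on plates A, B and C. The eGFP transcript followed with 406 ± 385 FPKM in MB, where 69 cells had it, and 143 ± 393 FPKM in FB, where 55 cells had it (log2 fold 1.50).

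Slc6a3 (chromosome 13, 73536747 to 73578672, plus strand), which returns dopamine from the cleft into the neuron, ran over 0, 409 and 5193 FPKM (lowest, median, highest) in MB cells and over 0, 0.0603 and 3513 FPKM in FB cells. Slc6a3 was found in 64 MB cells (85.3%, 75.3 to 92.4%) and 17 FB cells (20.99%, 12.7 to 31.5%). The mean was 683 ± 993 FPKM in MB and 47.4 ± 390.1 FPKM in FB, a log2 fold of 3.82. The fold was 6.15, 3.32 and 6.58 on plates A, B and C; on plate B 1 FB cell, at 3513 FPKM, carried 91.5% of all FB Slc6a3, and the next FB cell had 81.02 FPKM. Without that cell the fold was 7.07.

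Slc18a2, the vesicular monoamine transporter, was found in 69 MB cells and 36 FB cells. Its lowest, median and highest values were 0, 197 and 1089 FPKM in MB and 0, 0.222 and 803 FPKM in FB, with means of 247 ± 249 in MB and 31.8 ± 104 FPKM in FB (log2 fold 2.92). Ddc, which turns L-DOPA into dopamine and whose upstream window is printed above, was found in 70 MB and 45 FB cells at 277 ± 321 in MB and 101 ± 211 FPKM in FB (1.44). Gch1, which opens the synthesis of the tetrahydrobiopterin cofactor that the Th enzyme needs, was more one-sided, with 54 MB and 13 FB cells and 72.2 ± 107 in MB against 14.7 ± 51.5 FPKM in FB (2.22). The autoreceptor Drd2 had a log2 fold of 2.46 and the degrading enzyme Maoa one of 1.06. The other 5 genes of the list were not called, among them Maob at 9.80 in MB and 4.94 FPKM in FB (0.86) and the cofactor enzymes Spr (0.49) and Qdpr (-0.09).

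Counted per cell, MB cells had more of these genes beside Th. Th and Slc6a3 were both found in 64 MB cells (85.3%, 75.3 to 92.4%) and 17 FB cells (20.99%, 12.7 to 31.5%). Th and Slc18a2 were found together in 69 MB cells (92.0%) and 35 FB cells (43.2%). Th with Gad1 was found in 2 MB cells (2.67%, 0.325 to 9.30%) and 72 FB cells (88.9%, 79.95 to 94.8%). Of the 12 genes of the list an MB cell had a median of 9 (4 to 12), against 5 (1 to 11) for an FB cell. FB cells also had fewer genes of any kind, as given above.

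**Figure D3:**
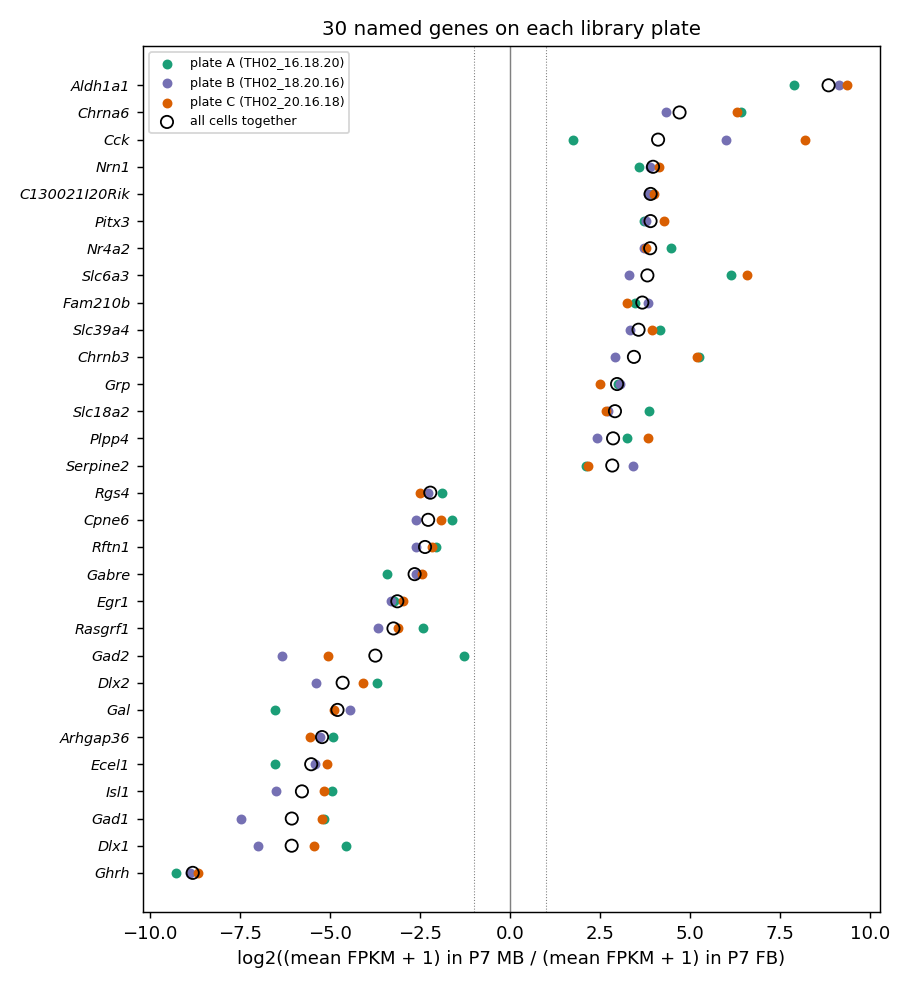
log2 fold of P7 MB over P7 FB for the 15 highest and 15 lowest genes under the naming rule, on plates A, B and C and over all cells; dotted lines mark 2-fold. All 30 genes keep their side on each plate, and Cck, Gad2 and Slc6a3 spread most between plates; the value of Isl1, at 0 in MB, depends on the pseudocount.

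Of the 15 genes of the midbrain dopaminergic identity list, 1 was under the minimum, and the other 14 were all called higher in MB, 12 of them at least 2-fold on every plate. The list median was 3.23, or 2.91, 3.03 and 3.36 on plates A, B and C, and 1.24 with the columns as named. The list was made of known midbrain genes with earlier results of these cells in view, so its direction is not independent evidence.

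Among its transcription factors, Nr4a2 (chromosome 2, 57106830 to 57124003, minus strand), an orphan nuclear receptor needed for the dopaminergic fate, was found in 70 MB cells (93.3%, 85.1 to 97.8%) and 6 FB cells (7.41%, 2.77 to 15.4%). Its lowest, median and highest values were 0, 35.4 and 264 FPKM in MB and 0, 0 and 111 FPKM in FB, and its log2 fold was 3.90 (4.47, 3.72 and 3.77 by plate). Most MB cells lay above most FB cells, and the overlap is made of 5 MB cells under 1 FPKM and 6 FB cells above it. Pitx3, a homeodomain factor for survival of nigral neurons, was found in 50 MB cells and 1 FB cell, at 24.9 ± 31.3 in MB and 0.725 ± 6.52 FPKM in FB (3.91). En1, a homeodomain factor of the midbrain-hindbrain region, was found in 66 MB cells and 1 FB cell, at 16.9 ± 18.3 in MB and 0.461 ± 4.12 FPKM in FB (3.61). The forkhead factors Foxa1 and Foxa2 were found in 53 and 36 MB cells and in 2 and 1 FB cells, with log2 folds of 3.14 and 3.32. Lmx1b (31 MB cells and 1 FB cell) and Lmx1a (38 MB and 4 FB cells) were at low levels in MB, 2.82 and 9.64 FPKM, with log2 folds of 1.90 and 1.55. C130021I20Rik, a noncoding transcript on chromosome 2, was found in 64 MB and 3 FB cells (26.4 ± 29.4 in MB against 0.824 ± 4.93 FPKM in FB, 3.91). Smart-Seq2 libraries carry no strand, so reads of an overlapping gene on the other strand would be counted with it.

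Aldh1a1 (chromosome 19, 20492715 to 20643465, plus strand), a retinaldehyde dehydrogenase of ventral nigral neurons, had the largest fold of all named genes. It split MB cells into a low and a high part, with a lowest, median and highest value of 0, 1.78 and 7192 FPKM, against 0, 0 and 28.9 FPKM in FB. Aldh1a1 was found in 43 MB cells (57.3%, 45.4 to 68.7%) and 9 FB cells (11.1%, 5.21 to 20.05%). The means were 793 ± 1513 in MB and 0.719 ± 3.31 FPKM in FB and the log2 fold 8.85 (7.90, 9.15 and 9.35 by plate). Its near copy Aldh1a7 averaged 9.80 ± 26.9 FPKM in MB, in 27 cells, and was listed at 0 in FB; reads of the 2 genes can be exchanged, so the level of each is uncertain.

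The nicotinic receptor subunits Chrna6 (chromosome 8, 27403212 to 27413944, minus strand) and Chrnb3, which form the acetylcholine receptors of dopaminergic axons, were found in 52 and 55 MB cells and in 1 FB cell each. Chrna6 had 0, 75.97 and 999 FPKM (lowest, median, highest) in MB and a single FB cell at 493 FPKM, with a log2 fold of 4.71 and 7.49 without that cell. Chrnb3 had means of 65.03 ± 84.9 in MB and 5.06 ± 45.3 FPKM in FB (3.45). Of 6 nicotinic subunits compared (13 listed), 4 were called higher in MB, the other 2 being Chrna4 (46.7 in MB against 11.8 FPKM in FB, 1.90) and Chrna3 (1.01), and none lower.

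Ret (chromosome 6, 118151745 to 118197718, minus strand), the receptor tyrosine kinase for glial cell line-derived neurotrophic factor, was found in 68 MB and 22 FB cells, at 61.9 ± 50.1 in MB and 8.73 ± 25.1 FPKM in FB (log2 fold 2.69, by plate 3.29, 2.43 and 2.88). Its coreceptor Gfra1 differed less (78.4 in MB against 34.8 FPKM in FB, 1.15). The transporter-like Slc10a4 (2.26) and the actin-binding Klhl1 (2.84) complete the list.

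One FB cell of plate B had the profile of the other region. Of the 14 midbrain identity genes that any FB cell had, 9 were highest in it. From that list it had En1 at 37.1 and Pitx3 at 58.7 FPKM. Of genes outside the list, it had Th at 4569 FPKM and Cck at 402 FPKM, where the highest FB cell for Cck had 1189 FPKM. The cell was listed at 0 for Gad1 and Isl1. It was found after the values had been seen. Without it the median of the midbrain identity list was 3.39 and the counts past 2-fold were 707 higher and 806 lower in MB; its origin was not tested.

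Of 12 substantia nigra-associated genes compared (13 listed), 9 were called higher in MB and none lower (median 2.05, and 1.80 without Aldh1a7). Serpine2, a secreted protease inhibitor, had 0, 24.8 and 1307 FPKM in MB cells (lowest, median, highest) and 0, 0.947 and 149 FPKM in FB cells, with a log2 fold of 2.84. It was found in 53 MB and 40 FB cells. Cluster P7.MB.4, described below, carried 73.3% of its MB total. In MB cluster P7.MB.3 its mean was 8.05 FPKM, against 23.1 FPKM in FB cluster P7.FB.2. Ndnf, a secreted neurotrophic protein (8.18 in MB against 0.0620 FPKM in FB, 3.11), the growth factor Igf1 (9.98 in MB against 0.487 FPKM in FB, 2.88) and the SoxD factor Sox6 (7.29 in MB against 1.38 FPKM in FB, 1.80) came from 20, 25 and 18 MB cells.

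Of 11 ventral tegmental-associated genes compared (12 listed), 9 were called higher and none lower (median 2.38). Cck (chromosome 9, 121489824 to 121495694, minus strand), the precursor of the peptide cholecystokinin, had 0, 198 and 3117 FPKM (lowest, median, highest) in MB cells and 0, 0 and 1189 FPKM in FB cells. Cck was found in 61 MB cells (81.3%, 70.7 to 89.4%) and 9 FB cells (11.1%, 5.21 to 20.05%), with a log2 fold of 4.12. Its fold differed between plates, at 1.74, 6.01 and 8.21, with FB means of 70.7, 13.9 and 0 FPKM on plates A, B and C. Cck averaged 28.7 FPKM in MB cluster P7.MB.4 and 45.1 FPKM in FB cluster P7.FB.2, both described below. The bombesin-like peptide gene Grp was found in 58 MB and also in 51 FB cells, at 85.5 ± 236 in MB and 9.98 ± 16.6 FPKM in FB (2.98). With the cells that did not pass quality control added, the fold of Grp turned to -0.23. Otx2, a homeodomain factor of the ventral tegmental area, was found in 24 MB cells and 1 FB cell (9.99 in MB against 0.276 FPKM in FB, 3.11). The calcium-binding proteins calbindin and calretinin followed (Calb1 82.1 in MB against 23.1 FPKM in FB, 1.79; Calb2 236 in MB against 98.2 FPKM in FB, 1.25).

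Slc17a6, the vesicular glutamate transporter by which some dopaminergic neurons also release glutamate, had 0, 17.96 and 423 FPKM in MB (lowest, median, highest) and 0, 0 and 163 FPKM in FB. It was found in 51 MB cells (68%, 56.2 to 78.3%) and 6 FB cells (7.41%, 2.77 to 15.4%), a log2 fold of 2.38 (3.09, 2.12 and 2.25 by plate). The 11 cells of cluster P7.MB.2, described below, carried 56.9% of the MB total, and the log2 fold was 1.44 without them. It was the 1 gene called higher of the 2 compared on the glutamatergic list. Slc6a3 and Slc17a6 were found together in 40 MB cells (53.3%, 41.4 to 64.95%) and 2 FB cells (2.47%, 0.3004 to 8.64%).

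Vip (chromosome 10, 5639218 to 5647617, plus strand), the precursor of vasoactive intestinal peptide, was uneven among MB cells. It ran from 0 through a median of 0.421 to 15715 FPKM in MB and from 0 through 0 to 812 FPKM in FB, with 29 MB and 20 FB cells at 1 FPKM or more. The means were 775 ± 2718 in MB and 10.7 ± 90.2 FPKM in FB and the log2 fold 6.06 (5.95, 9.77 and 4.43 by plate). A single FB cell carried 94.2% of the FB total and 10 MB cells of 1 cluster most of the MB total, as described below. Of the 6 periaqueductal-associated genes compared (7 listed), 2 were called higher (Vip and the guanylate cyclase Gucy2c, 2.53) and 2 lower (the peptide genes Cartpt, -3.13, and Pnoc, -1.36).

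Gad1, Gad2, Dlx1 and Dlx2 were found in few or no MB cells and in most FB cells. Of 6 GABAergic genes MB cells had a median of 2 (0 to 4) and FB cells 5 (1 to 6), and of 12 forebrain GABAergic transcription factors MB cells had a median of 1 (0 to 2) and FB cells 4 (0 to 9). Of 6 GABAergic genes, 4 were called lower in MB and none higher, with a median of -1.82 (-1.35, -1.97 and -2.16 on plates A, B and C, -0.48 with the columns as named). Of 9 forebrain GABAergic transcription factors compared (12 listed), 8 were called lower and none higher (median -3.54; -1.68, -4.09 and -2.72 by plate; -2.57 without the top cell of each gene).

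Gad1 (chromosome 2, 70553072 to 70602014, plus strand), which makes GABA from glutamate, had 0, 0 and 48.3 FPKM (lowest, median, highest) in MB cells and 0, 66.9 and 1045 FPKM in FB cells. It was found in 2 MB cells (2.67%, 0.325 to 9.30%) and 74 FB cells (91.4%, 83 to 96.5%). The MB mean of 0.723 ± 5.57 FPKM came almost whole from 1 cell at 48.3 FPKM, against 114 ± 161 FPKM in FB, a log2 fold of -6.06 (-5.15, -7.46 and -5.23 by plate). Gad2 was found in 4 MB and 67 FB cells (3.45 ± 19.5 in MB against 58.3 ± 61.1 FPKM in FB, -3.74). Its fold on plate A, -1.27, was far from those on B and C (-6.33 and -5.04); 2 MB cells had 122 and 118 FPKM, and the MB mean was 12.04 FPKM on plate A. The vesicular transporter Slc32a1 was found in 2 MB cells and 56 FB cells (-2.55). Cluster P7.MB.2, 11 MB cells described below, carried 90.3% of the MB total of Gad1, 98.1% of Gad2 and 100% of Slc32a1. Without that cluster the log2 fold was -6.73 for Gad1 and -5.79 for Gad2.

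Dlx1 (chromosome 2, 71528113 to 71533981, plus strand) and Dlx2, homeodomain factors that specify forebrain GABAergic neurons, were at 1 FPKM or more in 0 and 0 of 75 MB cells and in 69 and 60 of 81 FB cells. The highest MB cell had 0.909 FPKM of Dlx1, where the FB median was 27.4 and the highest FB cell had 743 FPKM; the log2 folds were -6.06 and -4.64. Dlx5 was found in no MB cell and 42 FB cells (-4.36). Dlx6 was listed at 0 in MB and averaged 10.7 ± 19.3 FPKM in FB, in 40 cells; reads of the antisense gene Dlx6os1 cannot be told apart from it without strand. Sp8 (-2.12) reached 1 FPKM in no MB cell and in 21 FB cells, and Meis2 was found in both regions (7 MB and 22 FB cells, -1.02).

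Of the 20 hypothalamic transcription factors, 9 stayed under the minimum; of the other 11, 8 were called lower in MB and none higher. The median was -2.73, with -1.11, -3.81 and -2.22 on plates A, B and C, and it covers 7 genes listed at 0 in MB, without which it was -3.46. Isl1 (chromosome 13, 116298281 to 116309689, minus strand) was listed at 0 in all 75 MB cells and had 0, 24.1 and 353 FPKM (lowest, median, highest) in FB cells, of which 57 had it (70.4%, 59.2 to 80.01%), with a mean of 53.8 ± 69.2 FPKM. Gsx1, a homeodomain factor needed for Ghrh neurons in the mouse, was found in no MB cell (highest 0.835 FPKM) and in 31 FB cells at 19.5 ± 33.7 FPKM (-4.33). Prox1 was found in 1 MB and 39 FB cells (-3.76) and Nkx2-1, which patterns the ventral hypothalamus, in 0 MB and 10 FB cells (-2.73). Six6, Six3, Hmx2 and Otp were listed at 0 in MB and averaged 7.74, 2.57, 1.54 and 1.06 FPKM in FB. Any of the 20 factors was found in 4 of 75 MB cells, with at most 1 per cell, and in 75 of 81 FB cells, with up to 7.

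Among hypothalamic peptides, 2 of 14 compared (22 listed) were called higher in MB and 6 lower (median -1.75). Ghrh (chromosome 2, 157329497 to 157347506, minus strand), growth hormone-releasing hormone, had the largest fold towards FB of all named genes. MB cells had 0, 0 and 38.5 FPKM (lowest, median, highest) and FB cells 0, 1.39 and 12523 FPKM, and FB cells split into a low and a very high part. Ghrh was found in 12 MB cells (16%, 8.55 to 26.3%) and 42 FB cells (51.9%, 40.5 to 63.1%), with means of 2.45 ± 7.64 in MB and 1545 ± 2917 FPKM in FB and a log2 fold of -8.81 (-9.26, -8.88 and -8.65 by plate). Even the highest MB cell was far below the FB mean, and the source of such traces of an abundant transcript was not tested.

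Gal, the precursor of galanin, had 0, 0 and 340.4 FPKM in MB and 0, 67.1 and 5128 FPKM in FB (lowest, median, highest), in 24 MB and 56 FB cells (-4.79). Ghrh and Gal were found together in 4 MB cells (5.33%) and 34 FB cells (41.98%, 31.1 to 53.5%). The tachykinin gene Tac1 was found in 6 MB and 20 FB cells (3.51 in MB against 109 FPKM in FB, -4.61). Sst, which encodes somatostatin, was found in 14 MB and 20 FB cells (19.97 in MB against 402 FPKM in FB, -4.26), but 1 FB cell had 19282 FPKM, the fold was -2.99 without it and -0.20 on plate C. Cluster P7.MB.2, described below, carried 93.9% of the MB total of Sst, and the fold was -7.38 without that cluster. The opioid precursor Pdyn (-1.77) and Nts, the precursor of neurotensin (-2.02), were lower in MB too. The 2 peptide precursors called higher in MB were Penk (40 MB and 16 FB cells, 1.12) and Pomc (16 MB and 7 FB cells, 1.10), the second at a mean of 4.56 FPKM.

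Receptors for hormones and peptides went both ways, with 3 called higher and 7 lower in MB of 21 compared (22 listed, median -0.63). Over all genes compared, 4.32% were called higher and 4.21% lower. Esr1, the oestrogen receptor alpha, was found in 5 MB and 28 FB cells (0.797 ± 3.79 in MB against 18.95 ± 40.2 FPKM in FB, -3.47), and the calcitonin receptor Calcr in 5 MB and 29 FB cells (3.99 ± 21.6 in MB against 44.5 ± 80.6 FPKM in FB, -3.19). The neuropeptide Y receptors Npy2r (-3.10) and Npy1r (-2.24) and the ghrelin receptor Ghsr (-1.22) were lower in MB as well. Higher in MB were the neurotensin receptor Ntsr1 (60 MB and 18 FB cells, 20.7 in MB against 2.75 FPKM in FB, 2.53) and the melanocortin receptors Mc3r (2.10) and Mc4r (1.69).

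**Figure D4:**
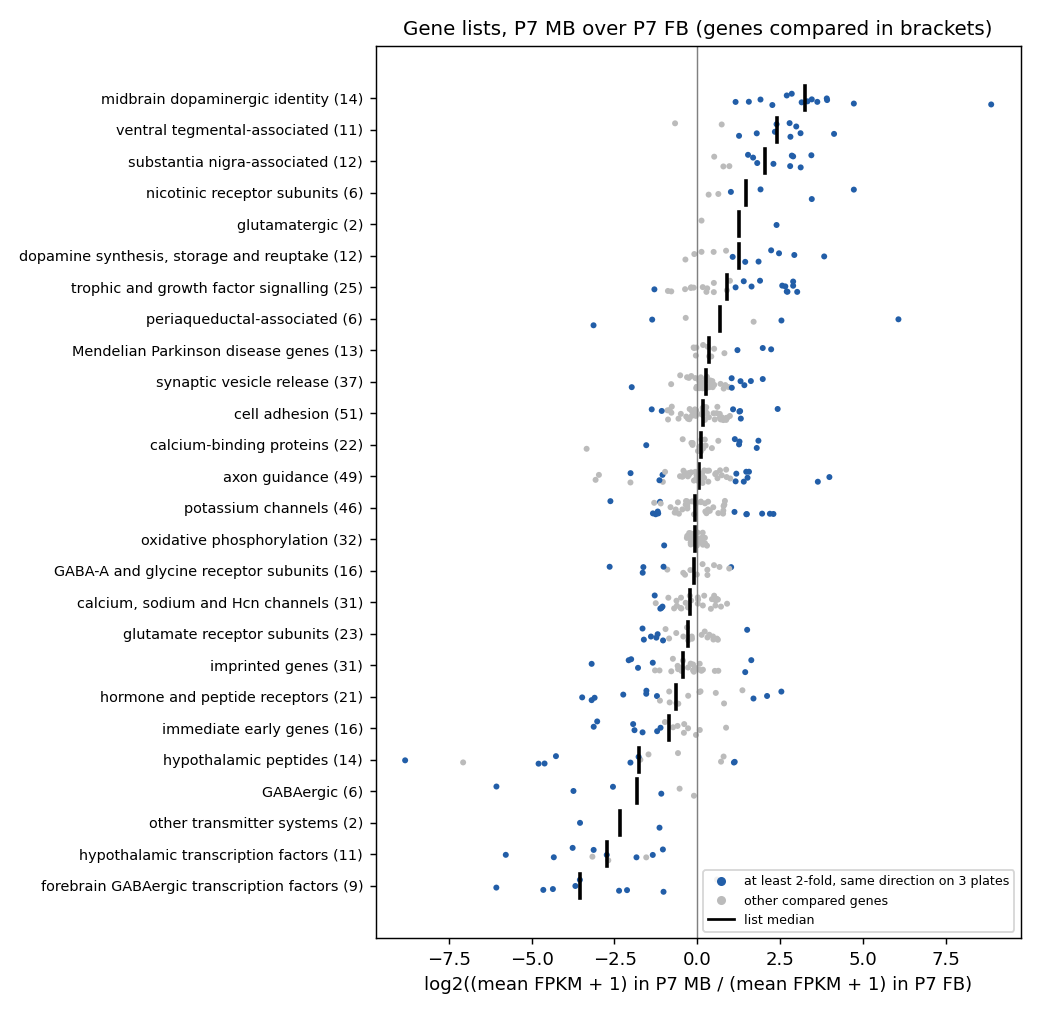
log2 fold of P7 MB over P7 FB for each compared gene of the 26 lists (points) and the list median (bars), ordered by median; blue points are called, and the number of genes compared stands in brackets. The lists of midbrain dopaminergic identity (median 3.23) and forebrain GABAergic transcription factors (-3.54) lie at the ends, and oxidative phosphorylation genes lie within a narrow band around 0.

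Trophic and growth factor genes were called mostly towards MB, with 11 of 25 compared (31 listed) called higher, 1 lower and a median of 0.89; Ret, Gfra1 and Igf1 are also on lists above. Over all genes compared, 4.32% were called higher and 4.21% lower, and the lower call of this list lies near that share. The neuregulin receptor Erbb4 was found in 47 MB and 10 FB cells (14.8 ± 22.2 in MB against 0.970 ± 3.66 FPKM in FB, 3.01, by plate 3.02, 2.89 and 3.31). The neurotrophins Ntf3 (36 MB and 5 FB cells, 2.88) and Bdnf (46 MB and 6 FB cells, 2.65) and the receptor Fgfr2 (35 MB and 4 FB cells, 2.71) were higher in MB. Insulin-like growth factor binding proteins Igfbp2, Igfbp3 and Igfbp4 had log2 folds of 2.55, 1.63 and 1.89. Fgf14, a modulator of sodium channels, was the member called lower (-1.30), and its relative Fgf13 was higher (336 in MB against 127 FPKM in FB, 1.40).

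Axon guidance and adhesion genes were called in both directions, beside 4.32% higher and 4.21% lower over all genes; the lower calls of both lists lie near that share. Of 49 guidance genes compared (55 listed), 8 were higher and 3 lower in MB (median 0.06), and of 51 adhesion genes compared (51 listed), 5 and 2 (median 0.17). Nrn1 (chromosome 13, 36725361 to 36735131, minus strand), a membrane-anchored promoter of neurite growth, had 0, 34.1 and 299 FPKM (lowest, median, highest) in MB cells and 0, 0 and 142 FPKM in FB cells; 64 MB and 5 FB cells had it, and the log2 fold was 3.98 (3.59, 3.89 and 4.15 by plate). The guidance cue netrin, Ntn1, was found in 56 MB and 5 FB cells (19.9 ± 23.5 in MB against 0.691 ± 3.41 FPKM in FB, 3.63). Robo2, a receptor for Slit repellents (1.51), the ephrin receptors Epha6 (1.40) and Epha5 (1.17) and cadherin 8, Cdh8 (49.8 in MB against 8.52 FPKM in FB, 2.42), were higher in MB. The secreted semaphorin Sema3c (-2.02) and the synapse organiser Lrrtm1 (-1.38) were lower.

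Receptor and channel genes of the membrane had calls in both directions, beside 4.32% called higher and 4.21% called lower over all genes compared. GABA-A and glycine receptor subunits had 1 called higher and 4 lower of 16, glutamate receptor subunits 1 and 6 of 23, and potassium channels 6 and 6 of 46. The higher calls of both receptor lists lie near the share over all genes. Of 31 calcium, sodium and Hcn channel genes, none was called higher and 4 were called lower. These lists held 18, 25, 52 and 35 genes before the minimum, and their medians were -0.12, -0.28, -0.07 and -0.23. Gabre, the epsilon subunit of the GABA-A receptor, was found in 28 MB and 50 FB cells (4.95 ± 10.4 in MB against 36.2 ± 49.4 FPKM in FB, -2.65), with Gabrg3 (-1.65) and Gabra5 (-1.63) also lower and Gabra4 higher (1.01). FB cluster P7.FB.1, described below, carried 74.8% of the FB total of Gabre. In FB cluster P7.FB.2 Gabre averaged 13.5 FPKM (45.5% of cells), less than the 20.6 FPKM (80%) of MB cluster P7.MB.3. The metabotropic receptor Grm2 was higher (1.50) and the kainate receptor subunits Grik1 (-1.66) and Grik2 (-1.61) were lower in MB. Kcnip4, a partner of A-type potassium channels, was found in 66 MB and 30 FB cells (2.18), and its relative Kcnip1 had the other direction (-1.18). The SK channel gene Kcnn3 (1.47) and the leak channel gene Kcnk9 (1.95) were higher in MB.

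At the synapse, 6 of 37 vesicle release genes compared (39 listed) were called higher and 1 lower (median 0.26). Over all genes compared, 4.32% were called higher and 4.21% lower, and the lower calls of this paragraph lie near that share. The vesicle proteins Sv2b (1.61) and Sv2c (1.41) were higher in MB and synaptoporin, Synpr, lower (6.44 in MB against 28.3 FPKM in FB, -1.98). Of 13 Mendelian Parkinson disease genes compared (16 listed), 3 were called higher, among them Gch1 and the auxilin gene Dnajc6 (148 in MB against 63.7 FPKM in FB, 1.21), and none lower (median 0.35). Of 32 oxidative phosphorylation genes compared (32 listed), none was called higher and 1 lower, Cox7c (62.6 in MB against 126 FPKM in FB, -1.0), with a median of -0.08.

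Calcium-binding proteins had 5 called higher and 1 lower of 22 compared (22 listed, median 0.12), the lower one being the kinase gene Camk2a (30.4 in MB against 90.4 FPKM in FB, -1.54). Over all genes compared, 4.32% were called higher and 4.21% lower. The lower call of this list and the higher calls of imprinted genes lie near those shares. Of 31 imprinted genes compared (33 listed), 2 were called higher (Dlk1, 1.62, and Ddc) and 5 lower (median -0.43). The lower ones were Calcr, Asb4 (18.1 ± 23.8 in MB against 79.2 ± 120.0 FPKM in FB, -2.07), Magel2 (-2.0), Plagl1 (-1.79) and Peg10 (-1.35). The vesicular acetylcholine transporter Slc18a3 was found in 1 MB and 20 FB cells (-3.54), and the acetylcholine-making enzyme Chat in 1 MB and 5 FB cells (-1.14); both genes compared on the list of other transmitters were thus called lower.

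Immediate early genes, which neurons switch on within minutes of activity or handling, were called in 1 direction, lower in MB, or not at all: none of 16 compared (19 listed) was called higher and 7 were called lower (median -0.86; -1.22, -0.42 and -1.06 by plate). Egr1 had 0, 0 and 42.4 FPKM in MB cells and 0, 2.79 and 599 FPKM in FB cells (lowest, median, highest), in 15 MB and 44 FB cells (log2 fold -3.13). Fos was found in 42 MB and 50 FB cells (19.8 ± 34.2 in MB against 76.6 ± 152 FPKM in FB, -1.90), Junb had a log2 fold of -1.94, Ier2 of -3.02 and Dusp1 of -1.22. Each region was dissociated as 1 pool, so activity in the animal and a response to dissociation cannot be told apart.

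The remaining genes among the 15 highest and 15 lowest belong to none of these lists. Towards MB they were Fam210b, a mitochondrial membrane protein (56 MB and 10 FB cells, 30.8 ± 46.2 in MB against 1.48 ± 5.53 FPKM in FB, 3.68), the zinc transporter Slc39a4 (51 MB and 1 FB cells, 30.5 ± 46.2 in MB against 1.65 ± 14.8 FPKM in FB, 3.57) and the lipid phosphatase Plpp4 (40 MB and 8 FB cells, 35.1 ± 63.1 in MB against 3.96 ± 19.1 FPKM in FB, 2.87). Towards FB, Ecel1, an endothelin-converting enzyme-like peptidase, had 0, 0 and 105 FPKM in MB and 0, 176 and 782 FPKM in FB cells (lowest, median, highest), in 11 MB and 69 FB cells (-5.52). Arhgap36, a regulator of Hedgehog signalling, was found in 8 MB and 57 FB cells (1.76 ± 6.38 in MB against 102 ± 189 FPKM in FB, -5.22). Rasgrf1, an exchange factor for Ras, was found in 22 MB and 69 FB cells (7.43 ± 19.9 in MB against 78.2 ± 82.6 FPKM in FB, -3.23). The lipid raft protein Rftn1 (-2.36), the copine Cpne6 (-2.27) and the regulator of G-protein signalling Rgs4 (-2.21) closed the list. Cpne6 turned to 0.48 with the columns as named. Cluster P7.MB.2, described below, carried 70.6% of the MB total of Rasgrf1 and 52.2% of that of Cpne6. Their means in that cluster were 35.7 and 33.6 FPKM, against 57.6 and 45.5 FPKM in FB cluster P7.FB.2. Plpp4 averaged 1.35 FPKM in MB cluster P7.MB.4 and 5.83 FPKM in P7.FB.2.

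The clusters that the labels give to these cells show which cells of a region carry a gene. They were made from the same cells, so differences between them are descriptions. MB cells fell into P7.MB.1 (39 cells), P7.MB.2 (11), P7.MB.3 (10) and P7.MB.4 (15), and FB cells into P7.FB.1 (26) and P7.FB.2 (55); each occurred on every plate.

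**Figure D5:**
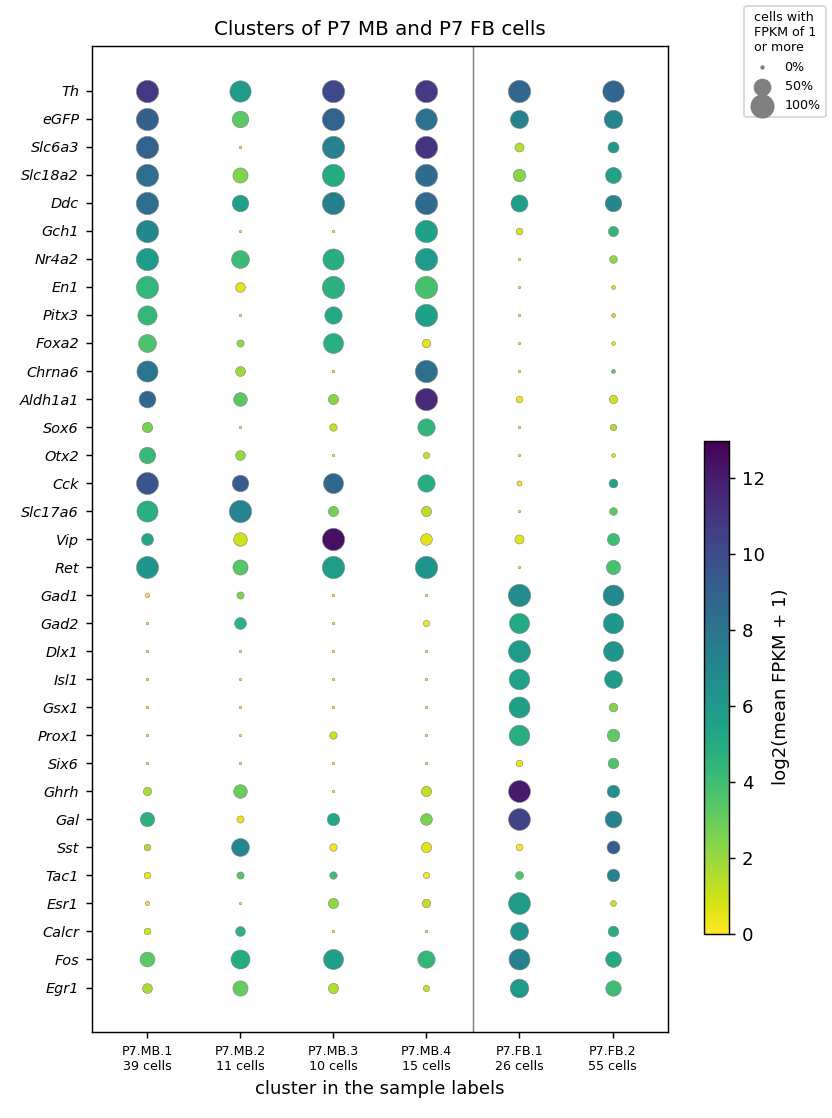
Mean level (colour, log2(mean FPKM + 1)) and share of cells at 1 FPKM or more (size of the circle) of 33 genes in the 4 MB clusters (left) and the 2 FB clusters (right). Gad1, Dlx1 and Isl1 fill both FB columns and are near empty in all MB columns, while Slc6a3 is near empty in P7.MB.2.

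Aldh1a1 came mainly from P7.MB.4, where all 15 cells had it at a mean of 2838 FPKM, against 430.3 in P7.MB.1, 9.27 in P7.MB.2 and 3.96 in P7.MB.3. Slc6a3 had the same order at its top, with 2078 FPKM in P7.MB.4, 474 in P7.MB.1 and 153 in P7.MB.3. Vip came from P7.MB.3, where all 10 cells had it at 5657 FPKM, or 97.4% of the MB total. The 11 cells of P7.MB.2 met the label of dopaminergic neuron only in part. Slc6a3, Pitx3 and Gch1 were each found in 0 of them, the eGFP transcript in 6, and Slc17a6 in all 11 at 138 FPKM. Th was found in 10 at a mean of 59.5 FPKM, Nr4a2 in 7 (16.5 FPKM), Ddc in 6 (53.6 FPKM) and Slc18a2 in 5 (4.58 FPKM). The lack of Gch1 was shared with P7.MB.3, where 0 of 10 cells had it while all 10 had Th and Slc6a3. With the 11 cells of P7.MB.2 left out, a step added after the values were seen, 723 features were at least 2-fold higher and 925 lower in MB.

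Ghrh came from P7.FB.1, where 25 of 26 cells had it at a mean of 4611 FPKM, against 17 of 55 cells and 95.4 FPKM in P7.FB.2. Gal (1381 against 154 FPKM), Gsx1 (51.02 against 4.57) and Esr1 (56.9 against 1.02) followed it. So did the immediate early genes Fos (167 against 33.8 FPKM) and Egr1 (64.9 against 15.4). Other FB genes did not: Gad1 averaged 111 FPKM in P7.FB.1 and 115 in P7.FB.2, Dlx1 62.7 and 72.96, Isl1 43.99 and 58.4 and Th 424 and 411.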

How the data were processed

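The deposited values are FPKM per gene and cell; the authors made them with HISAT2 and Cuffnorm on mouse build mm10, per the submitters' processing notes, and versions and annotation are not given in the sources used here. FPKM are not counts and showed no steps of whole fragments, so the depth of a cell is unknown and the number of genes in its label stands in for it. Genes that every cell uses (Actb, Actg1, Eef1a1, Tubb5, Gapdh, Hsp90ab1) were at exactly 0 in 0.444% of MB and 1.03% of FB values, so a gene without values is said to be listed at 0 and its fold is not printed in the text. Such a fold rests on the pseudocount, but it does enter the rankings, calls, list medians and figures.

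Of 28952 features, 28637 got a symbol by Ensembl identifier (14 share one). Gene coordinates are those of GENCODE M21 (GRCm38, the mm10 assembly), and upstream sequences are RefSeq's. Columns of plates A and C were exchanged well by well, as the rule that chose the cells says. The 75 MB and 81 FB cells held no identical columns. Means over cells gave log2((mean + 1)/(mean + 1)); a gene was found in a cell at 1 FPKM or more, with exact (Clopper-Pearson) 95% intervals. Named genes are the 15 highest and 15 lowest among 984 with a symbol, a mean of 20 in the higher region, presence in 50% of its cells and 1 direction on all 3 plates and in mean log2(FPKM + 1), plus list genes with 1 direction on all plates, the largest folds first; Th and eGFP are always given. Genes named as absent markers, and Aldh1a7, stand outside this rule. The cells, 26 gene lists and 7 marker lists were chosen with earlier results of these data known. Some list genes are not reported here. No doublet caller was run on these sorted wells. No test was made, and intervals cover counting error alone. The fold was tested on simulated data with known changes. Alternatives were other pseudocounts, minimums, scalings, plates and sets of cells. Python 3.11.15, numpy 2.4.6, pandas 2.3.3, scipy 1.17.1 and matplotlib 3.10.9 were used.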

Additional observations from a re-analysis of the deposited data

How the results depend on the processing

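The counts of 656 features at least 2-fold higher and 801 lower in MB depended on the scale and on how many cells enter. Plate B alone gave 1405 and 1805, a pseudocount of 10 gave 91 and 69, one of 0.1 gave 1099 and 1341, cells rescaled to the same sum gave 1254 and 1393, and a minimum mean of 10 gave 214 and 220. The mean of log2 values gave 102 lower, and leaving out the highest cell of each gene gave 531 lower. Leaving out 1 library plate at a time gave 641 to 1013 higher and 586 to 1345 lower; without plate A there were 775 and 1345, and without plate C 1013 and 968. The medians of 19 of 26 lists kept their sign under every alternative. Those of the other 7 changed it under at least 1: hormone and peptide receptors (0.03 as a mean of log2 values), GABA-A and glycine receptors (0.21), glutamate receptors (0.16), potassium channels (0.11), calcium, sodium and Hcn channels (0.09) and oxidative phosphorylation (0.22) on that scale, and axon guidance (-0.03) without plate A. Without plate B, glutamate receptors, calcium, sodium and Hcn channels and oxidative phosphorylation changed it too, and without plate C potassium channels and oxidative phosphorylation. The midbrain dopaminergic identity median of 3.23 was 1.24 with the columns as named, 1.73 and 4.42 with pseudocounts of 10 and 0.1, 4.10 with cells rescaled and 3.56 in cells with 4000 to 7000 genes. The dopamine list (1.25) was 0.75 with the columns as named, 1.02 with a pseudocount of 10, 2.26 as a mean of log2 values and 1.64 with a minimum of 10. Hypothalamic factors (-2.73) were at -0.65 and -5.76 with pseudocounts of 10 and 0.1, -0.61 as a mean of log2 values and -4.33 with a minimum of 10. GABAergic genes (-1.82) were at -0.48 with the columns as named, -0.79 and -2.57 with pseudocounts of 10 and 0.1 and -2.41 with a minimum of 10. Leaving out 1 plate gave 3.12 to 3.25, 1.14 to 1.40, -3.19 to -2.26 and -2.04 to -1.68 for these 4 lists. Without plate A the median of all genes was -0.16, and as a mean of log2 values 0.22. With the columns as named, 35 of 38 genes moved by more than the SD between plates without turning, 36 of the 38 came nearer to 0, and among those under 2-fold were Th (0.74), Gad1 (-0.56), Gad2 (-0.90), Egr1 (-0.75), Fos (-0.81) and Rgs4 (-0.81). Directions turned for 2: Cpne6 turned to 0.48 with the columns as named and Grp to -0.23 with the cells that did not pass added; the cause was not tested. Pseudocounts and minimums act by construction on low genes. No paired analysis was possible because each region is 1 pool and cell numbers do not match cells of different regions.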
